A study of Ovis aries with 16 samples.

Results

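Hearts of sheep that had met both a prenatal and a dietary exposure were compared with hearts of sheep that had met neither. The 8 libraries used were chosen by their group labels, 4 named ObBPA and 4 named control, out of 16 in the series, and each library was the myocardium of 1 female sheep. Mothers of the ObBPA animals received bisphenol A (BPA) in corn oil at 0.5 mg/kg per day under the skin, from day 30 to day 90 of gestation, and mothers of the control animals received the oil alone. The daughters were separated by diet from 14 weeks of age. The control ration began at 1.4 lbs of corn and 1.4 lbs of hay a day. The overfed ration began at 1.7 lbs of corn and 1.6 lbs of hay and was later free-choice. Both rations also held 0.03 lbs of a supplement a day. All animals were given prostaglandin F2α to bring their cycles together, and hearts were taken at 21 months. The other groups of the series carried 1 exposure each: BPA (prenatal BPA, control ration) and obese (oil, overfed). Both exposures differ at once between ObBPA and control, so their shares in a difference cannot be told apart here. Of the 27054 features in the table, 12707 were tested. These had an FPKM (fragments mapped per unit of transcript length and of library depth) of 1 or more in 4 or more of the 8 libraries.

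BPA is used to make plastics, binds oestrogen receptors weakly and crosses the placenta. The myocardium is built mostly of cardiomyocytes by mass, with fibroblasts, endothelial cells, smooth muscle and leukocytes among them, and it lives chiefly on fatty acid oxidation in the adult. Obesity is known to raise the supply of fatty acids to the heart. The table gave Ensembl sheep gene IDs without gene names, and 0 of the 27054 IDs matched the gene table at hand, so no gene is named, and the labelled tissue could not be checked against marker genes of heart cells. Control library 1 and the libraries numbered 0 stood apart from the others, as the values by library below show, and results are given with and without them.

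Few features separated the groups. By limma, with the false discovery rate held at 0.05, a single feature was called. It was higher in ObBPA hearts and makes up 0.00787% of the features tested, and 0 were called lower. The called feature passed the filter on FPKM through ObBPA libraries only, so its call is a description. At an unadjusted p under 0.05 there were 230 features (1.81%), 123 higher (0.968%) and 107 lower (0.842%) in ObBPA, while evenly distributed p-values would put 635 there. In whole tissue, fewer cells of a type and less RNA per cell cannot be told apart. The ranges of control and ObBPA did not overlap in 182 features (1.43%). The ObBPA libraries were the upper 4 in 111 of them (0.874%) and the lower 4 in 71 (0.559%). Without control library 1 the ObBPA libraries lay above the rest in 281 features (2.21%) and below in 132 (1.04%). With 3 libraries a group, after leaving out those numbered 0, the numbers were 660 (5.19%) and 652 (5.13%), and without control library 1 as well they were 1313 (10.3%) and 1097 (8.63%). Fewer libraries overlap less often, so these counts are not comparable with each other.

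The differences were small in most of the tested features. The median log2 difference over all tested features, ObBPA minus control on the scale of log2(FPKM + 1), was 0.0085, and the 5th and 95th percentiles were -0.31 and 0.34. The median standard error of a difference was 0.175. For 92.1% of features the 95% interval excluded a change of FPKM + 1 by more than 2-fold, a bound that does not hold for the FPKM itself in features of low level.

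The called feature was ENSOARG00000024410. Every control library was listed at 0, while the FPKM was 1519, 714, 3334 and 1436 in ObBPA libraries 0 to 3, and limma gave an adjusted p of 7.67e-06. The groups did not overlap, and ObBPA library 2 was well above the other 3. In the groups with 1 exposure the same feature was at 1387, 967, 0 and 1324 in the BPA libraries and at 0, 0, 618 and 898 in the obese libraries. Values of 0 thus also occurred in 1 BPA and 2 obese libraries, and no library of the series held a value between 0 and 618. With all 16 libraries fitted together, so that the spread within the BPA and obese groups counted too, the adjusted p was 0.936 by limma and the feature was not called. It was called without control library 1 (adjusted p = 0.000383 by limma) and without the libraries numbered 0 (adjusted p = 0.00237). As the filter was passed through ObBPA libraries only, a difference was set in advance, and these calls support none.

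These FPKM values were small whole multiples of a smallest value. In libraries numbered 1 to 3, the FPKM of a feature, once corrected for the relative depth of the library, moved in whole multiples of a smallest step, which is the value of 1 fragment or of a whole number of fragments. For ENSOARG00000024410 the values in ObBPA libraries 1, 2 and 3 were 1, 4 and 2 steps, and those in the BPA and obese libraries numbered 1 to 3 were between 0 and 3 steps. An FPKM of 714 was therefore 1 step of this feature. The control libraries numbered 1 to 3 held 0 steps against 7 in ObBPA, at a relative depth of 0.539, 0.901 and 1 in control and of 1.08, 0.928 and 1.08 in ObBPA. The filter on FPKM was passed through ObBPA libraries only by 3 features, this one among them, and through control libraries only by 1. A feature that entered in this way had to differ, so its p is given as a description. No fold is given, since the fitted log2 difference of 10.6 depends on the constant of 1 added to the FPKM.

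**Figure D1:**
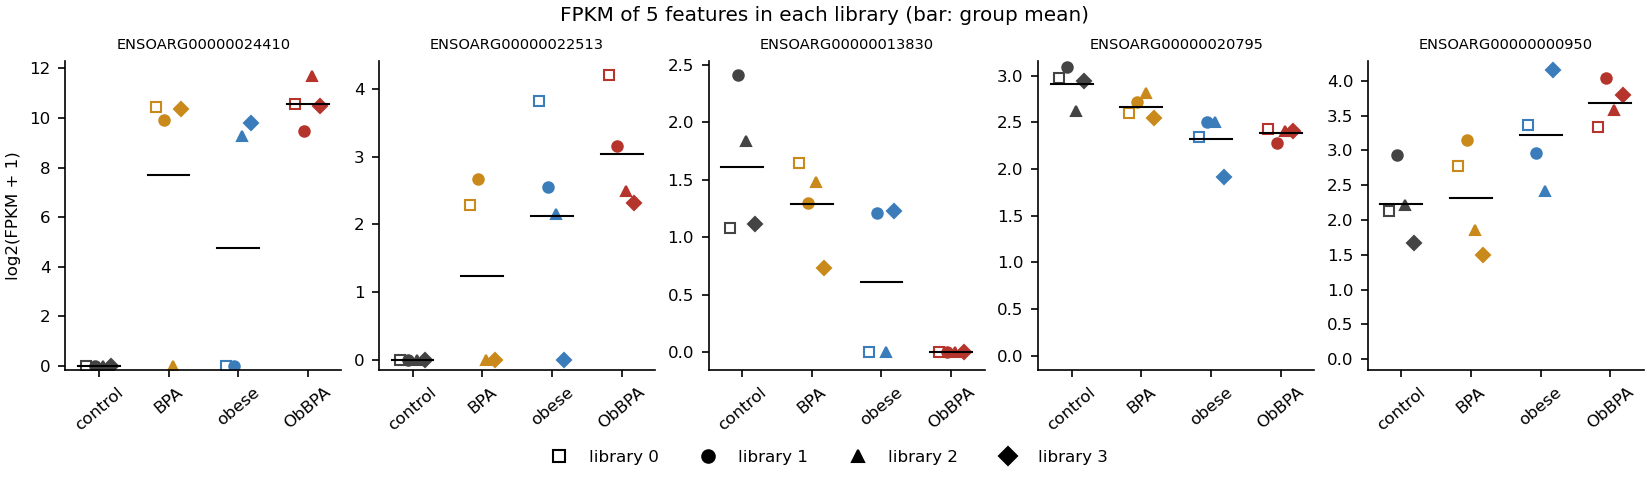
FPKM of 5 features on the log2(FPKM + 1) scale (vertical axis) in each library of the 4 groups (horizontal axis), with the library number as the symbol and the group mean as a bar. The first 3 features are at 0 in all libraries of control or of ObBPA and vary between 0 and higher values in the obese group, while the last 2 are above 0 in all 16 libraries.

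The feature with the next smallest p among those higher was of the same kind. ENSOARG00000022513 was likewise at 0 in each control library, and its FPKM was 17.4, 7.95, 4.63 and 3.99 in ObBPA libraries 0 to 3, and limma gave an adjusted p of 0.0957. In ObBPA libraries 1, 2 and 3 these were 2, 1 and 1 steps. Its values were 3.90, 5.38, 0 and 0 in the BPA libraries and 13.2, 4.86, 3.44 and 0 in the obese libraries, so 3 libraries with 1 exposure were also at 0. This feature too entered the comparison through its ObBPA libraries only, so its p supports no difference. The adjusted p by limma was 0.00676 without ObBPA library 0 and 0.034 without both libraries numbered 0. It was 0.415 without control library 1 and 0.365 without that library and those numbered 0.

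The features with the smallest p among those lower were 1 of few steps and 1 well measured. ENSOARG00000013830 had FPKM values of 1.11, 4.32, 2.58 and 1.16 in control libraries 0 to 3 and 0 in each ObBPA library, and limma gave an adjusted p of 1.0. It was the feature that passed the filter through control libraries only, so its p supports no difference either. The fitted log2 difference, which depends on the added constant, was -1.61, or -1.34 without control library 1 and -1.79 without the libraries numbered 0, neither of them called. With a constant of 0.1 in place of 1 it was called (adjusted p = 0.046 by limma), and with 0.01 it was not (adjusted p = 1.0). Control libraries 1, 2 and 3 held 2, 2 and 1 steps of it. In the obese libraries it was at 0, 1.31, 0 and 1.35, and in the BPA libraries at 2.14, 1.45, 1.79 and 0.664, with 1 step in each BPA library numbered 1 to 3. ENSOARG00000020795 had FPKM values of 6.86, 7.54, 5.14 and 6.71 in control libraries 0 to 3 and of 4.40, 3.86, 4.29 and 4.30 in ObBPA libraries 0 to 3. The groups did not overlap, and control library 2 was the nearest to ObBPA. The log2 difference was -0.53 ± 0.126 (SE, n = 4 per group), and limma gave an adjusted p of 1.0. In the libraries numbered 1 to 3, 104 to 121 steps stood behind the ObBPA values and 106 to 175 behind the control values. Its values were 5.07, 5.56, 6.01 and 4.83 in the BPA libraries and 4.08, 4.67, 4.69 and 2.76 in the obese libraries. The obese libraries lay below all 4 control libraries, and BPA libraries 0 and 3 did as well. Without the libraries numbered 0 the log2 difference was -0.52, and without control library 1 it was -0.47, neither of them called.

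Few of the differences above 2-fold were in features with a mean of at least 10 steps. In FPKM + 1, 101 features were more than 2-fold higher and 67 more than 2-fold lower in ObBPA, and 6 and 13 of these had a mean of at least 10 steps per library. A common step was found for 10799 of the 12707 tested features (85.0%). Their values in the libraries numbered 1 to 3 were whole multiples within 0.02 of a step. A step was found for 57.2% of features with a mean FPKM between 100 and 1000, and for 35.2% at 1000 or more. The search allowed fewer than 5000 steps in a library, so features of very many steps could be left without one. The 1908 features without one count neither as well measured nor as of few steps. Most features with a mean FPKM of 1000 or more are thus in neither set. The mean number of steps per library, over the 6 control and ObBPA libraries so numbered, was under 10 in 479 features. Among these 479, 8.14% had an unadjusted p under 0.05 and the log2 differences ran from -1.68 to 2.63 between the 5th and the 95th percentile, with a median standard error of 0.625. In the 10320 features with at least 10 steps, 1.67% had such a p, 86 higher and 86 lower, the same percentiles were -0.29 and 0.31, and the median standard error was 0.171. A change by more than 2-fold lay outside the 95% interval for 94.8% of the well measured features and for 21.3% of those with few steps. An FPKM of at least 1 did not keep such features out, since 76 of the 479 had a mean FPKM between 100 and 1000. A fit of the 10320 features alone gave 0 calls by limma, and the unadjusted p was under 0.05 in 192 of them.

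**Figure D2:**
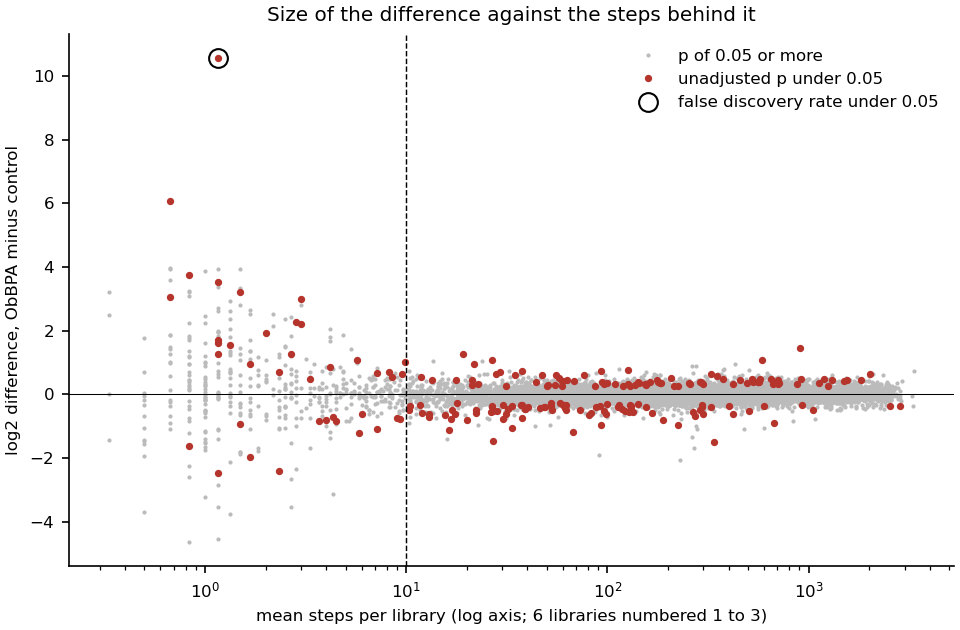
Log2 difference between ObBPA and control (vertical axis) against the mean number of steps per library (horizontal log axis) for the 10799 features with a common step. Red points have an unadjusted p under 0.05, the circle marks the called feature, and the dashed line stands at 10 steps, to the right of which the differences narrow.

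Most features with a value of 0 had few steps. Such a value stood in 1 or more of the 8 libraries for 295 tested features, and 271 of the 284 with a known step had a mean under 10 steps. More control than ObBPA libraries were at 0 in 151 features, fewer in 74 and equally many in 70. Control library 1 held 155 tested features at 0, and the other 7 libraries held 58 to 103. Its relative depth, read from the FPKM values themselves, was the lowest of the 6 libraries that had one. A part of depth in the zeros was not tested. Whether a 0 stands for no fragments or for an estimate that failed is not known.

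Among features with many steps, the one called under any setting was ENSOARG00000000950, singled out here after its values had been seen. Its FPKM values were 3.35, 6.66, 3.65 and 2.18 in control libraries 0 to 3 and 9.07, 15.4, 11.0 and 12.8 in ObBPA libraries 0 to 3, resting on 239 to 393 steps in control libraries 1 to 3 and on 1116 to 1832 steps in ObBPA libraries 1 to 3. The groups did not overlap, and control library 1 was the highest of the control libraries. The log2 difference was 1.45 ± 0.264 (SE, n = 4 per group), with a 95% interval of 0.85 to 2.05 and an adjusted p of 1.0 by limma, which misses the threshold. Its values were 5.88, 7.84, 2.64 and 1.82 in the BPA libraries and 9.31, 6.77, 4.32 and 16.7 in the obese libraries. The BPA libraries spread from below to above the control range, and the obese libraries reached from the control range to above the ObBPA range. Without control library 1 the log2 difference was 1.68, and without the libraries numbered 0 it was 1.53. It was called by limma with libraries weighted by their residual spread (adjusted p = 0.020), and its 27 alternatives gave adjusted p-values from 0.020 to 1. In that fit control library 3 had a weight of 4.80 and control library 1 one of 0.136.

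The well measured features with a small p differed by little. Of the 86 higher features with an unadjusted p under 0.05 and at least 10 steps, 4 differed by more than 2-fold in FPKM + 1 and the median log2 difference was 0.40, with a range of 0.25 to 1.45. Of the 86 lower features 5 did, with a median of -0.48 and a range of -1.51 to -0.26. The medians over all 5303 higher and 5017 lower features with at least 10 steps were 0.12 and -0.10. As the p chose these features, their sizes are a description.

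The direction of the differences varied with the abundance of the features, and it turned without control library 1. Of the 162 features whose mean FPKM was 1000 or more, 19.1% were higher in ObBPA, with a median log2 difference of -0.16. Among the 904 features between 100 and 1000 the share was 32.3% and the median -0.082, and among the 5184 features between 2 and 10 they were 57.8% and 0.037. In the most abundant features the median deviation from the mean of the 8 libraries, on the log2 scale, was -0.23, 0.66, -0.045 and -0.023 in control libraries 0 to 3 and -0.15, -0.016, 0.023 and -0.15 in ObBPA libraries 0 to 3. Control library 1 was the highest by far, both libraries numbered 0 were low, and control libraries 2 and 3 lay within the range of the ObBPA libraries. An exact two-sided permutation test of the library values gave p = 0.66, and the 5 ranges of abundance all had an adjusted p of 1. Without control library 1 the direction turned, with 56.2% of the most abundant features higher in ObBPA and a median log2 difference of 0.026. In the range from 100 to 1000 the share without that library was 70.2%. Leaving out the libraries numbered 0 instead gave 13.0% and -0.25 for the most abundant features. Without any of these 3 libraries the values were 48.1% and -0.0091.

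**Figure D3:**
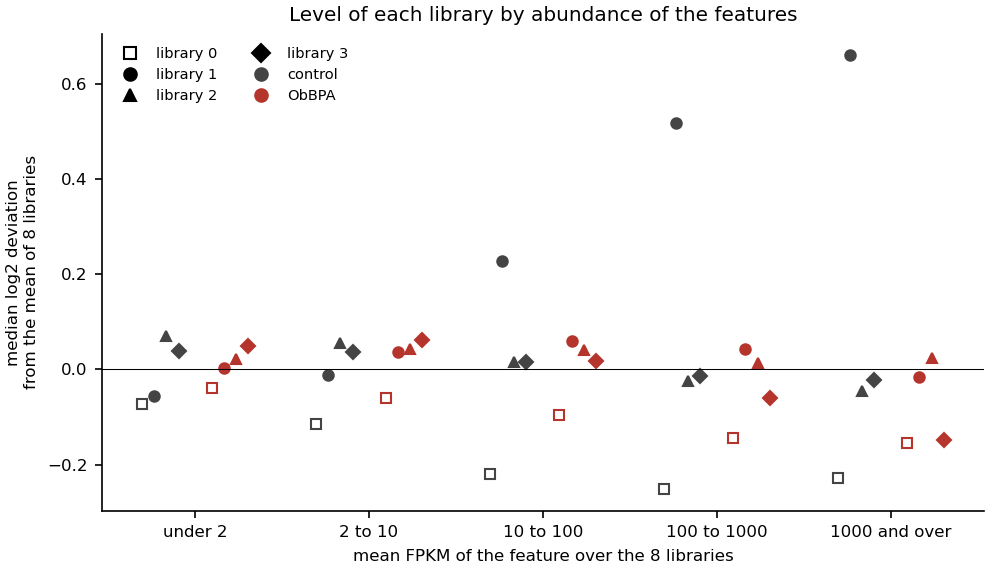
Median log2 deviation of each library from the mean of the 8 libraries (vertical axis), for features in 5 ranges of mean FPKM (horizontal axis). Control library 1 climbs to 0.66 in the most abundant features, and the open squares show that the library numbered 0 is the lowest of its group in all 5 ranges.

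Control libraries varied more among themselves than ObBPA libraries. The median standard deviation of a feature within the group, on the log2 scale, was 0.301 in control and 0.161 in ObBPA, and it was larger in control for 79.6% of features. Without control library 1 the medians were 0.193 and 0.161 and the share was 60.9%. Without that library and the libraries numbered 0 the order turned, with medians of 0.0997 and 0.122 and a share of 42.1%, which leaves 2 control libraries. Control library 1 differed by more than 2-fold in FPKM + 1 from the median of the other 7 libraries in 1027 features, against 236 to 357 in each of the others. Its median correlation with them was 0.930, against 0.949 to 0.958. The groups as a whole reached an FPKM of at least 1 in 12584 ± 241 control and 12682 ± 128 ObBPA features (SD, n = 4), which did not differ beyond their spread (exact two-sided permutation p = 0.51).

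The number of features with a small p depended on which libraries were fitted. It was 230 with all 8 libraries, 489 without control library 0, 347 without control library 2, 152 without ObBPA library 1 and 151 without ObBPA library 2. Without control library 0, the ObBPA group alone held a library numbered 0, and 359 of the 489 features were lower in ObBPA. Without control library 1 the number was 280, with 187 higher and 93 lower. Leaving out the libraries numbered 0 gave 360, with 152 higher and 208 lower and 5 features called, and leaving out control library 1 as well gave 547. Of the 230 features, 126 had an unadjusted p under 0.05 in the same direction without control library 1, 134 without the libraries numbered 0, and 84 in both, 51 higher and 33 lower. In all 8 fits that left out 1 library, 49 of the 230 did so, 32 higher and 17 lower. None of the 230 had a difference of opposite sign in any of the 28 alternatives in which it was tested. They were chosen by p in these same libraries, and several alternatives leave the difference unchanged, so this is a description.

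The split by direction also moved with the scaling between libraries. Of the 230 features 53.5% were higher in ObBPA with the values as deposited. The share was 42.8% of 271 after median-of-ratios scaling, 35.3% of 295 after upper quartile scaling and 35.1% of 342 after quantile normalization, while ENSOARG00000024410 was the single call in each. The median log2 difference over all features stayed between -0.0072 and 0.0085 in these 4 fits.

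**Figure D4:**
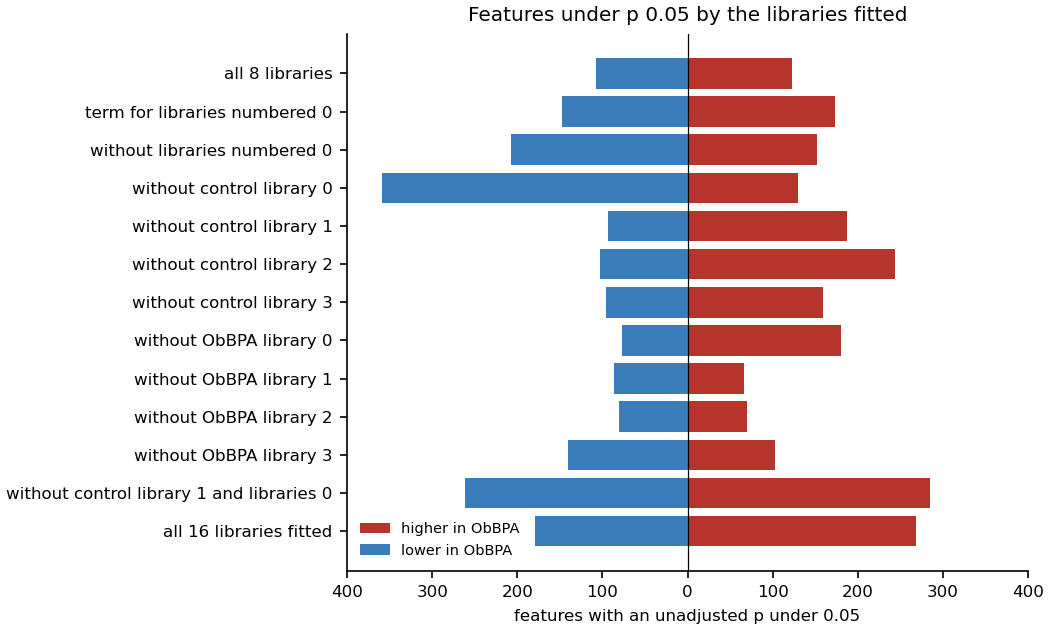
Number of features with an unadjusted p under 0.05 (horizontal axis, lower in ObBPA to the left and higher to the right) for each choice of libraries (vertical axis). The bars range from 151 features without ObBPA library 2 to 547 without control library 1 and the libraries numbered 0, and the longest bar to the left is that without control library 0.

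The groups with a single exposure mostly fell between the compared groups where these did not overlap. In 150 of the 182 features (82.4%) the mean log2 level of the BPA group lay between those of control and ObBPA, in 135 (74.2%) that of the obese group did, and in 116 (63.7%) both did. Over all 12707 tested features these shares were 42.9%, 34.8% and 22.5%. Features chosen for a wide gap between control and ObBPA leave more room between them, so the larger shares are a description with no test. The obese mean lay beyond the ObBPA mean in 41 of the 182 features and beyond the control mean in 6, and for the BPA mean these numbers were 23 and 9. Among the 145 of the 182 features with at least 10 steps the shares in between were 81.4% for BPA and 73.8% for obese.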

How the data were processed

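Messenger RNA of the myocardium was sequenced by the submitters from 16 sheep, after poly-A selection and a TruSeq RNA library preparation, per the labels' protocols. The deposited table holds FPKM values, 1 column per animal, computed by the authors. The submitters' processing notes name the build Oar_v3.1 and, with no role or order, Cuffdiff 2.1.1, Cufflinks, Bowtie2 2.1.0, TopHat2 2.0.9 and FastQC. Settings, annotation and any further scaling are not given in the sources used here.

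Values of the 8 control and ObBPA libraries were transformed to log2(FPKM + 1) and fitted as 2 groups with limma 3.58.1 in R 4.3.3 (trended prior variance, 6 residual and 2.94 prior degrees of freedom). Tests were two-sided, with Benjamini-Hochberg adjustment over 12707 features and a false discovery rate of 0.05. Exact permutation tests over 4 against 4 libraries can reach no p below 0.029. The procedure was tested on simulated normal values without zeros or steps, so that test does not cover features of few steps. The filter kept 263 features that reached an FPKM of 1 in exactly 4 libraries (median of the mean FPKM 1.13) and left out 319 that did so in 3 (0.986).

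Absolute depth is unknown. Relative depth came from the commonest ratio of low FPKM values between libraries, and the libraries numbered 0 shared no such ratio. A depth read in this way also holds any scaling put into the FPKM values. A step is the largest value of which a feature's depth-corrected FPKM is a whole multiple in the 12 libraries numbered 1 to 3, at least 4 of them above 0. Each of these libraries had to hold fewer than 5000 steps. Over the features with a step, the 6 libraries used here held 3022044 to 5637214 steps. FPKM steps depend on feature length, so no count model was used.

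The comparison and its alternatives were chosen with earlier results of these data known, and those that use steps after seeing these results. As IDs had no gene names, the 31 gene lists drawn up were not used. By rule, the text names the 2 higher and 2 lower features of smallest p. Summaries and figures used Python 3.11.15, pandas 2.3.3, numpy 2.4.6, scipy 1.17.1 and matplotlib 3.10.9.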

Additional observations from a re-analysis of the deposited data

Results flagged for a closer look

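In 42 groups of 4 libraries, 3 held a library far from the other 3, and such a gap is found in about 1 of 20 groups of independent normal values. The median FPKM of the tested features was 7.93 in control library 0, against 9.13 to 9.27 in the other control libraries. It was 8.43 in ObBPA library 0, against 9.19 to 9.32 in the other ObBPA libraries. Control library 1 differed by more than 2-fold in FPKM + 1 from the median of the other 7 libraries in 1027 features, against 238 to 357 in the other control libraries.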

How the results depend on the processing

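ENSOARG00000024410 was called in 24 of the 25 alternatives that tested it, and not with all 16 libraries fitted. In that fit limma called 0 features and gave 448 an unadjusted p under 0.05. The feature entered through ObBPA libraries only and most alternatives kept that filter, so the 24 calls are a description. The alternatives that required a mean of at least 10 steps left it out. Calls numbered 3 with a pseudocount of 0.1, 2 with one of 0.01, 3 with library weights and 4 without control library 1 and the libraries numbered 0. Leaving out libraries singly, or both numbered 0, gave 1 to 5 calls and 151 to 489 features under an unadjusted p of 0.05. The 5 calls came without control library 3 and without both libraries numbered 0, and 2 came without ObBPA library 0. Of the 12 features called under any setting, 11 had a mean of at most 1.5 steps per library and at least 3 of the 8 libraries at 0. Requiring a mean of at least 10 steps gave 0 calls by limma with all libraries (192 features under an unadjusted p of 0.05), without the libraries numbered 0 (296) and without control library 1 (224). The number under that p was 510 with no filter, 90 at a mean FPKM of at least 10, 1140 with library weights and 547 without control library 1 and the libraries numbered 0. With the replicate number as a block it was 298, and 358 without control library 1, each with 1 call. Deviations of equally numbered libraries from their group means correlated at 0.088, 0.14, -0.025 and 0.027 for numbers 0 to 3. For unequally numbered libraries the correlations ran from -0.12 to 0.061. Whether the numbers pair the libraries was not tested. No direction of a named feature reversed, but these features were chosen from the same libraries, so this is a description. The 95% interval excluded a change by more than 2-fold for 21.3% of the features with a mean under 10 steps, and the part of depth in this was not tested.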
